A study of Mus musculus with 6 samples.

Results

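The genes described here are the tubulins, the kinesins with their light chains and the cytoplasmic dyneins, which together make microtubules and the motors that walk along them. They were chosen by symbol alone (KIF, KIFC, KLC, TUBA, TUBB, TUBG, TUBD, TUBE, DYNC and DYNL names), a rule that uses no levels, though the gene set was picked with earlier results of these data known, and number 73 of the 14915 genes in the deposited table. The RNA came from B16F10, a cell line of mouse melanoma. Cells carrying ZBTB5-S127A (3 libraries, called S127A), in which the serine at that position of the zinc finger factor ZBTB5 is replaced by alanine, were set against wild-type cells (3 libraries, WT). Both groups were treated with TNFα under amino acid limitation, so no untreated state was compared, and the design text states an interest in how this phosphorylation site bears on mTORC1 activation by inflammation. The S127A cells are described as an established line, and neither the number of clones nor separate cultures are given, so the p-values measure only the spread between these libraries, which may be technical.

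Values are TPM, reads per gene normalised for gene length and library total, given per library or as mean ± SD with n = 3 per group. Differences are S127A minus WT on log2(TPM + 1), tested with limma and adjusted over 10348 genes with a mean of at least 1 TPM. The table holds no counts and leaves library depth unknown. ZBTB5 itself stood at 9.24, 8.24 and 9.21 TPM in S127A, against 15.9, 14.9 and 15.7 TPM in WT, which does not show the substitution. The libraries labelled S127A went against the labelled cell type: 10 melanocyte markers summed to 28.2 to 33.8 TPM in S127A, against 15417 to 15716 TPM in WT. In bulk RNA, fewer cells of a type and less RNA per cell cannot be told apart, and clonal or cell line differences cannot be told apart from the substitution in this design.

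Microtubules are polymers of alpha-tubulin and beta-tubulin dimers, nucleated from rings that contain gamma-tubulin. Most kinesins walk toward the plus end with vesicles or organelles as cargo, whereas a set of mitotic kinesins builds and divides the spindle. Cytoplasmic dynein is the main motor toward the minus end. In pigment cells, kinesins and dynein move melanosomes over long distances along microtubules before actin-based capture at the cell edge.

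The microtubule and motor genes were mostly lower in S127A, with a few isotypes higher. Of the 73 genes, 57 reached a mean of 1 TPM and 16 did not. Of these 57, 41 fell and 14 rose. The background is high in both directions: of all tested genes 49.8% were lower and 40.2% higher (90.0% in either direction), against 71.9% lower and 24.6% higher here. A call alone therefore says little, and the sizes carry more. The counts given for each class below stand against these same shares of all tested genes. Changes of at least 2-fold were found for 17 of the 57 (29.8%), 15 lower and 2 higher, against 35.4% of all tested genes (19.9% lower and 15.5% higher). The median log2 difference was −0.50, against −0.12 for all tested genes. With TMM factors, which moved the median of all genes to −8.77e-04, the numbers were 38 lower and 14 higher of 57 (66.7% and 24.6%), against 44.8% lower and 44.9% higher among all genes (89.7% in either direction). Without the filter 72 of the 73 were tested, of which 46 fell and 18 rose, against 39.7% lower and 33.9% higher (73.6% in either direction) of all genes.

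**Figure D1:**
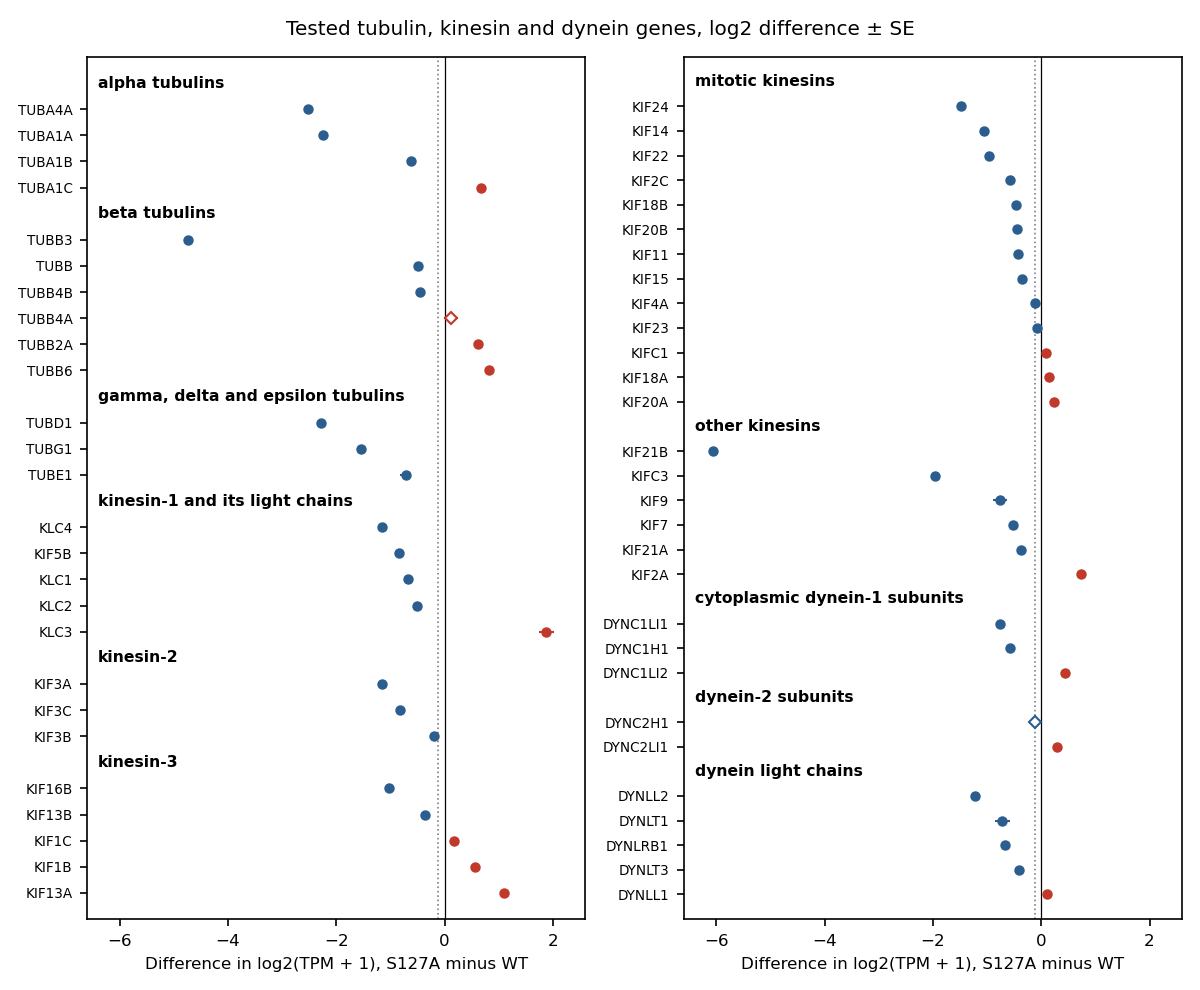
Log2 difference of TPM + 1, S127A minus WT, with its standard error for 55 of the tested genes by class; filled circles passed the test, open diamonds did not, and the dotted line marks the median of all tested genes (−0.12). TUBG2 and KIF26A, listed at 0 in all S127A libraries, are left out; KIF21B and TUBB3 lie farthest to the left and KLC3 and KIF13A farthest to the right.

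Among the alpha-tubulins, 3 of 4 tested genes fell and TUBA1C rose. TUBA1B, a widely expressed isotype and the most abundant gene of the whole set, stood at 1207, 1246 and 1285 TPM in S127A, against 1881, 1947 and 1936 TPM in WT (log2 difference −0.62, SE 0.0307, adjusted p = 5.07e-09). TUBA1A, the main alpha-tubulin of developing neurons, stood at 167, 178 and 203 TPM in S127A, against 830, 921 and 865 TPM in WT (log2 difference −2.25, SE 0.063, adjusted p = 4.21e-11). The S127A libraries kept 21.0% of the WT mean of TUBA1A and 64.8% of that of TUBA1B. TUBA1C, a further widely expressed isotype, went the other way, with 267, 265 and 269 TPM in S127A, against 156, 174 and 173 TPM in WT (log2 difference 0.67, SE 0.0419, adjusted p = 3.98e-08). No S127A library overlapped a WT library for any of these genes, which also held for 90.2% of all tested genes. TUBA4A, whose product lacks the encoded C-terminal tyrosine of other alpha-tubulins, held 10.4, 11.5 and 12.9 TPM in S127A, against 70.5, 71.4 and 71.0 TPM in WT (log2 difference −2.52, adjusted p = 2.29e-11). TUBA8 and TUBA3E stayed at or below 0.25 TPM in all 6 libraries.

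The neighbours TUBA1A and TUBA1C thus moved apart although they lie close together. Tuba1b, Tuba1a and Tuba1c occupy one stretch of chromosome 15 in mm10 (98931425 to 98934565, 98949837 to 98953703 and 99029891 to 99038110), with 15271 bases between Tuba1b and Tuba1a and 76187 between Tuba1a and Tuba1c. The ratio of TUBA1A to TUBA1C was 0.627, 0.671 and 0.753 in S127A, against 5.33, 5.29 and 5.01 in WT. The promoter windows of this diverging pair, 300 bases from RefSeq (GRCm38.p6) that run from 250 before to 50 after the start, are shown 5′ to 3′ with the letters CCAAT or its reverse complement ATTGG in capitals. Tuba1a lies at chr15:98953452-98953751, minus strand, and Tuba1c at chr15:99029641-99029940, plus strand.
Tuba1a: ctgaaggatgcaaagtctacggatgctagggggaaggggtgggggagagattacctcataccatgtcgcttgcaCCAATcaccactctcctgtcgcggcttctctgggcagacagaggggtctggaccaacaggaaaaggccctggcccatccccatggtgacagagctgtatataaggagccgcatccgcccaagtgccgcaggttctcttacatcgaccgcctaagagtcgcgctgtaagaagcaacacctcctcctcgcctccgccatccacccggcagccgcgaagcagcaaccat
Tuba1c: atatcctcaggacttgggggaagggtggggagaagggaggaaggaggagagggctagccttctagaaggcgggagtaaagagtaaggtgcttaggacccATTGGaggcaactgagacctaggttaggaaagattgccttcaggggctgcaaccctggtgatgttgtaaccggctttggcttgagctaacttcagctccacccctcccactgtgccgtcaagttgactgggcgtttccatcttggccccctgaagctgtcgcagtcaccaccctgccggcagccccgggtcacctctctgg
Each window holds 1 such match, and 41.1% of all genes have at least 1 in a window of this length. The coding sequences of the alpha-tubulin genes are near-identical, and how shared reads were divided is not stated in the sources used here, so the split between isotypes is less certain than their sum. That sum was 1652, 1701 and 1770 TPM in S127A, against 2938, 3114 and 3045 TPM in WT.

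Among the beta-tubulins 3 of 6 tested genes fell and 2 rose: both major isotypes fell alike, while minor isotypes went in opposite directions. The row named TUBB, in human the class I isotype of most cells, stood at 659, 710 and 688 TPM in S127A, against 961, 979 and 948 TPM in WT (log2 difference −0.49, SE 0.0322, adjusted p = 6.45e-08). The symbols DYNLT1, TUBB, KIF4A, TUBA3E and KIF19 matched no mouse gene of the same name, so which mouse gene each row counts is not known here. TUBB4B, another broadly expressed isotype, fell by a like amount, with 319, 345 and 336 TPM in S127A, against 454, 471 and 448 TPM in WT (log2 difference −0.46, adjusted p = 2.47e-07). TUBB3, the class III isotype known from neurons and from many tumours, almost disappeared: 6.79, 5.63 and 7.24 TPM in S127A, against 195, 206 and 193 TPM in WT (log2 difference −4.73, SE 0.0721, adjusted p = 3.42e-13). That left 3.31% of the WT mean. TUBB6, the class V isotype, rose, with 175, 188 and 188 TPM in S127A, against 104, 109 and 98.9 TPM in WT (log2 difference 0.82, SE 0.0429, adjusted p = 8.97e-09). TUBB2A, a class II isotype, rose at a lower level, with 21.7, 23.0 and 23.7 TPM in S127A, against 13.6, 13.6 and 16.3 TPM in WT (log2 difference 0.62, adjusted p = 8.91e-06). TUBB4A, a brain isotype, was near 1 TPM in both groups (0.89, 1.25 and 1.37 TPM in S127A and 1.35, 1.02 and 0.67 TPM in WT) and did not pass (log2 difference 0.12, adjusted p = 0.415). Without WT replicate 3 its difference was −0.01. TUBB1, of platelets, and TUBB2B stayed at or below 0.43 TPM.

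TUBB3 sits directly downstream of MC1R, the melanocortin receptor of pigment cells. In mm10, Mc1r covers chromosome 8 from 123407107 to 123410744 and Tubb3 from 123411424 to 123422015, both on the plus strand, with 679 bases between them. In human pigment cells transcripts that run from MC1R into TUBB3 are known. MC1R, named after its values were seen, stood at 0.66, 0.61 and 0.74 TPM in S127A, against 98.7, 96.7 and 92.1 TPM in WT (log2 difference −5.86, adjusted p = 2.14e-14), so both neighbours were high in the same libraries. A part of joint transcripts in the TUBB3 level was not tested. The RefSeq window of Tubb3 (chr8:123411303-123411602, plus strand) begins downstream of Mc1r and is shown with its ATTGG in capitals.
Tubb3: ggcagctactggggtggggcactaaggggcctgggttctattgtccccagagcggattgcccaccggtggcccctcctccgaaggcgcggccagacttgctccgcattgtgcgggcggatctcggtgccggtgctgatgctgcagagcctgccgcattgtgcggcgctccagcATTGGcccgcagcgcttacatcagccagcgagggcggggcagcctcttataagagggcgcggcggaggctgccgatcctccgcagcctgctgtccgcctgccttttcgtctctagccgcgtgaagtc
It holds neither CACGTG (8.09% of all genes on either strand) nor CATGTG or its reverse complement CACATG (15.9% of all genes), letters that the pigment cell factor MITF is known to bind.

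**Figure D2:**
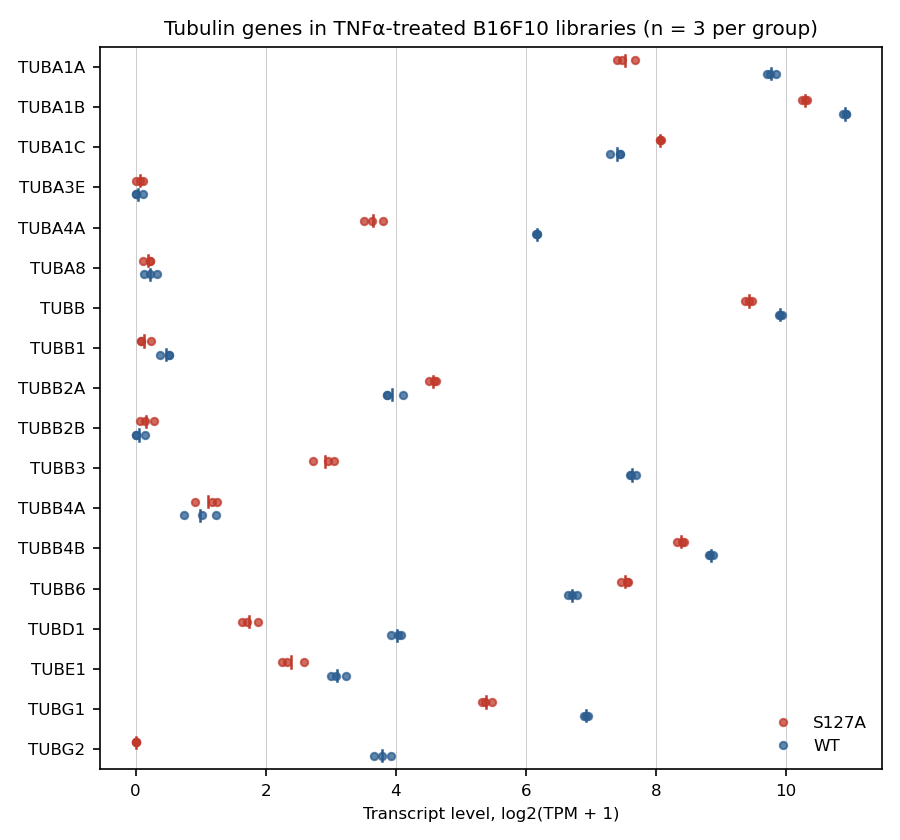
Level of each tubulin gene as log2(TPM + 1) in the 3 S127A (upper, red) and 3 WT (lower, blue) libraries; points are libraries and the short bar is their mean. TUBB3, TUBA4A, TUBA1A, TUBD1 and the gamma-tubulins are shifted left in S127A, and TUBA1C, TUBB2A and TUBB6 are shifted right.

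The make-up of the tubulin pools followed from these levels. How reads shared between isotypes were divided is not stated, for beta as for alpha, so the shares are less certain than the sums. Which mouse gene the TUBB row counts is also not known here. TUBB6 made up 14.9% ± 0.185 of the summed beta-tubulin TPM in S127A and 5.98% ± 0.164 in WT, and TUBB3 0.533% ± 0.0785 in S127A and 11.4% ± 0.17 in WT. The share of TUBB differed by less than the spread between replicates (55.6% ± 0.276 in S127A and 55.4% ± 0.329 in WT), and that of TUBB4B was 27.0% ± 0.0697 in S127A and 26.3% ± 0.105 in WT. In the alpha pool, TUBA1C held 15.7% ± 0.475 in S127A and 5.52% ± 0.197 in WT. TUBA1A held 10.7% ± 0.691 in S127A and 28.7% ± 0.724 in WT, and TUBA1B 73.0% ± 0.349 in S127A and 63.4% ± 0.772 in WT. A single scaling factor per library, as in TMM, leaves these shares unchanged; they were not computed under quantile normalization. Summed alpha- and beta-tubulin was 2836 to 3014 TPM in S127A, against 4667 to 4894 TPM in WT, or 61.7% of the WT mean.

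**Figure D3:**
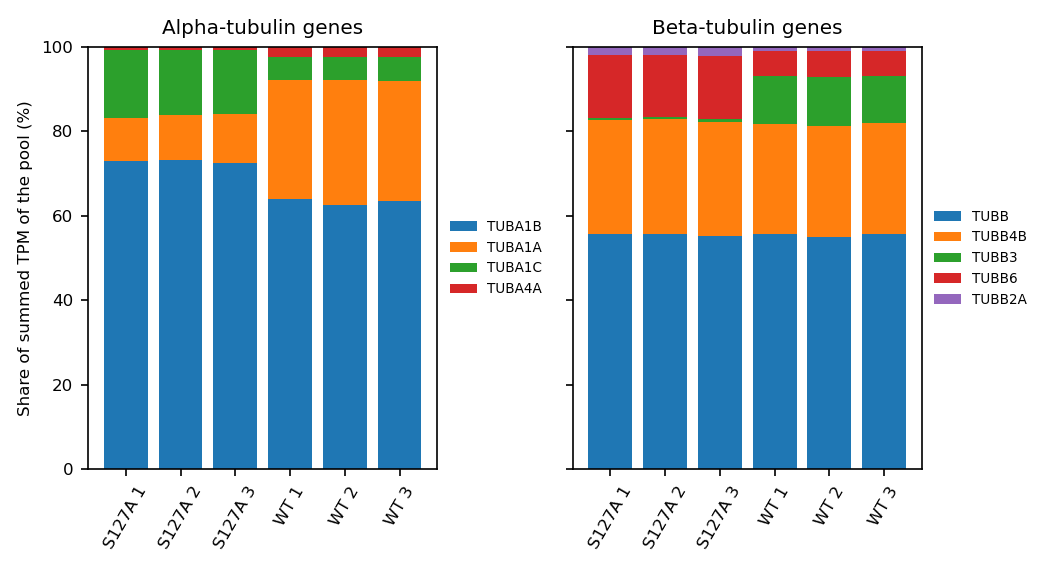
Share of each isotype in the summed TPM of the alpha-tubulin (left) and beta-tubulin (right) genes in each S127A and WT library; isotypes under 0.5% in both groups are not drawn. TUBB3 shrinks to 0.533% in S127A while TUBB6 widens to 14.9%, and TUBA1C widens to 15.7%.

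All 4 tubulins outside the dimer fell, where 49.8% of all tested genes were lower. TUBG1, the main gamma-tubulin of the nucleating ring, stood at 40.2, 39.2 and 43.5 TPM in S127A, against 121, 118 and 124 TPM in WT (log2 difference −1.54, SE 0.043, adjusted p = 4.16e-11). TUBG2, the second gamma-tubulin gene, was listed at 0 in all 3 S127A libraries, against 11.7, 12.8 and 14.2 TPM in WT (adjusted p = 4.76e-12). Their genes are neighbours on chromosome 11 (101119938 to 101126419 and 101155907 to 101161787, mm10) and are very similar in sequence, so reads may be shared between them. TUBD1 and TUBE1, the delta- and epsilon-tubulins of centriole triplets, also fell. TUBD1 held 2.1, 2.69 and 2.26 TPM in S127A, against 15.9, 15.5 and 14.2 TPM in WT (log2 difference −2.28, adjusted p = 2.76e-10). TUBE1 held 3.74, 5.01 and 4.01 TPM in S127A, against 8.37, 7.47 and 7.0 TPM in WT (log2 difference −0.72, adjusted p = 3.32e-05). The delta gene lost the larger part of its level.

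Kinesin-1, the conventional cargo motor, fell as heavy chain and main light chain alike. KIF5B, its broadly expressed heavy chain, stood at 92.1, 85.0 and 89.1 TPM in S127A, against 163, 155 and 159 TPM in WT (log2 difference −0.84, SE 0.0371, adjusted p = 2.12e-09). KLC1, a light chain that binds cargo, stood at 106, 105 and 115 TPM in S127A, against 172, 178 and 174 TPM in WT (log2 difference −0.68, adjusted p = 1.47e-08). The levels of KIF5B and KLC1 in S127A were thus 55.8% and 62.3% of their WT means. KLC4, a further light chain, held 10.8, 10.2 and 11.8 TPM in S127A, against 26.1, 25.4 and 25.3 TPM in WT (log2 difference −1.16, adjusted p = 5.73e-09), and KLC2 fell by 0.50 on the log2 scale. KLC3, a light chain known from the sperm tail, was the exception: 5.69, 7.07 and 6.08 TPM in S127A, against 0.6, 1.01 and 1.36 TPM in WT (log2 difference 1.88, SE 0.132, adjusted p = 1.09e-07). It remained the lowest of the 4 light chains in both groups. The neuronal heavy chains KIF5A and KIF5C were under the tested level, at 0.52 to 0.61 and 0.14 to 0.19 TPM in S127A and 0.14 to 0.26 and 0.02 to 0.07 TPM in WT.

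Kinesin-2, the motor of cilia and of several organelles, fell unevenly. Its core subunit KIF3A stood at 15.46, 16.02 and 16.55 TPM in S127A, against 37.5, 36.8 and 36.7 TPM in WT (log2 difference −1.16, adjusted p = 6.88e-10). KIF3C, an alternative partner of KIF3A, held 16.6, 16.6 and 16.3 TPM in S127A, against 30.1, 30.9 and 29.6 TPM in WT (log2 difference −0.83, adjusted p = 9.83e-09). KIF3B, the usual partner, held 29.5, 29.2 and 29.3 TPM in S127A, against 34.2, 34.2 and 32.8 TPM in WT (log2 difference −0.19, adjusted p = 8.92e-04). With TMM factors that small difference was −0.08 and no longer called (adjusted p = 0.0953). KIF3B was thus below KIF3A in each WT library and above it in each S127A library. KIF17 was at or below 0.18 TPM throughout.

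The kinesin-3 genes went both ways, with 3 of 5 tested genes higher and 2 lower. KIF13A, known in melanocytes for carrying recycling endosomes that deliver cargo to melanosomes, stood at 29.0, 29.8 and 29.9 TPM in S127A, against 12.9, 13.6 and 13.3 TPM in WT (log2 difference 1.10, SE 0.0469, adjusted p = 1.45e-09). Its mean in S127A was thus 2.23 times that in WT. KIF16B, a motor of early endosomes, moved the other way, with 13.0, 12.3 and 12.6 TPM in S127A, against 26.7, 27.0 and 26.5 TPM in WT (log2 difference −1.03, adjusted p = 2.89e-09). KIF1B, a carrier of mitochondria and synaptic vesicle precursors, held 57.4, 54.5 and 54.5 TPM in S127A, against 36.9, 37.0 and 37.0 TPM in WT (log2 difference 0.57, adjusted p = 7.14e-08). KIF1C, the most abundant of the class, rose slightly, with 88.1, 87.7 and 95.9 TPM in S127A, against 79.9, 82.6 and 78.4 TPM in WT (log2 difference 0.17, adjusted p = 0.00264). KIF13B held 6.2, 7.03 and 7.12 TPM in S127A, against 8.92, 9.12 and 9.15 TPM in WT (log2 difference −0.37, adjusted p = 2.67e-04). KIF1A, the axonal member, was listed at 0 in WT and at 0.02 to 0.05 TPM in S127A.

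The mitotic kinesins held most of their level. The class as drawn takes in KIF24, of centrioles, and leaves out KIF2A, a depolymerase active both in and outside mitosis. KIF2A rose by 0.73 on the log2 scale and is given with the other kinesins. All 13 of the class were tested. Of these 10 fell (76.9%) and 3 rose (23.1%), against 49.8% lower and 40.2% higher of all tested genes. The median absolute log2 difference was 0.42, against 0.69 over all tested genes. Their summed level was 515, 512 and 515 TPM in S127A, against 616, 623 and 611 TPM in WT, or 83.3% of the WT mean. With TMM factors 8 fell (61.5%) and 3 rose (23.1%), against 44.8% lower and 44.9% higher of all tested genes. KIF20A, the midzone kinesin of cytokinesis, was the most abundant in both groups and rose, with 95.9, 100.3 and 99.3 TPM in S127A, against 82.9, 83.5 and 84.8 TPM in WT (log2 difference 0.23, SE 0.0325, adjusted p = 4.40e-05). KIF23, another motor of the midzone, held 75.7, 74.2 and 75.4 TPM in S127A, against 79.7, 80.5 and 77.5 TPM in WT. Its difference of −0.08 passed narrowly (adjusted p = 0.0486) and was 0.04 with TMM factors, so no direction is given to it. KIF11, which pushes spindle poles apart, stood at 53.2, 52.1 and 53.0 TPM in S127A, against 71.1, 72.6 and 69.1 TPM in WT (log2 difference −0.42, adjusted p = 5.16e-07). KIF2C, the depolymerase of kinetochores, stood at 33.7, 30.9 and 33.3 TPM in S127A, against 48.4, 50.8 and 48.2 TPM in WT (log2 difference −0.58, adjusted p = 3.26e-07).

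The deeper falls were in KIF24, KIF14 and KIF22. KIF24, a centriolar depolymerase, held 2.87, 3.0 and 2.91 TPM in S127A, against 9.52, 10.5 and 10.1 TPM in WT (log2 difference −1.49, adjusted p = 1.64e-09). KIF14, of cytokinesis, held 9.24, 8.08 and 8.52 TPM in S127A, against 20.2, 19.2 and 17.7 TPM in WT (log2 difference −1.06, adjusted p = 4.90e-08). The chromosome arm motor KIF22 held 34.7, 37.0 and 36.7 TPM in S127A, against 70.1, 71.7 and 73.8 TPM in WT (log2 difference −0.97, adjusted p = 1.19e-09). KIF15, KIF18B and KIF20B fell by 0.36 to 0.46 on the log2 scale. The remaining 3 differed little: KIF4A by −0.11, KIFC1 by 0.08 and KIF18A by 0.15. Of these KIF4A was at 0.01 with TMM factors and not called with any of the 3 rescalings. Calls at this size turned on single libraries. KIF18A lost its call without S127A replicate 1 or 3 or WT replicate 2, KIF4A without replicate 2 or 3 of either group, and KIFC1 without S127A replicate 2 or 3 or any WT replicate. KIF23 lost its call without any single library except WT replicate 3.

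**Figure D4:**
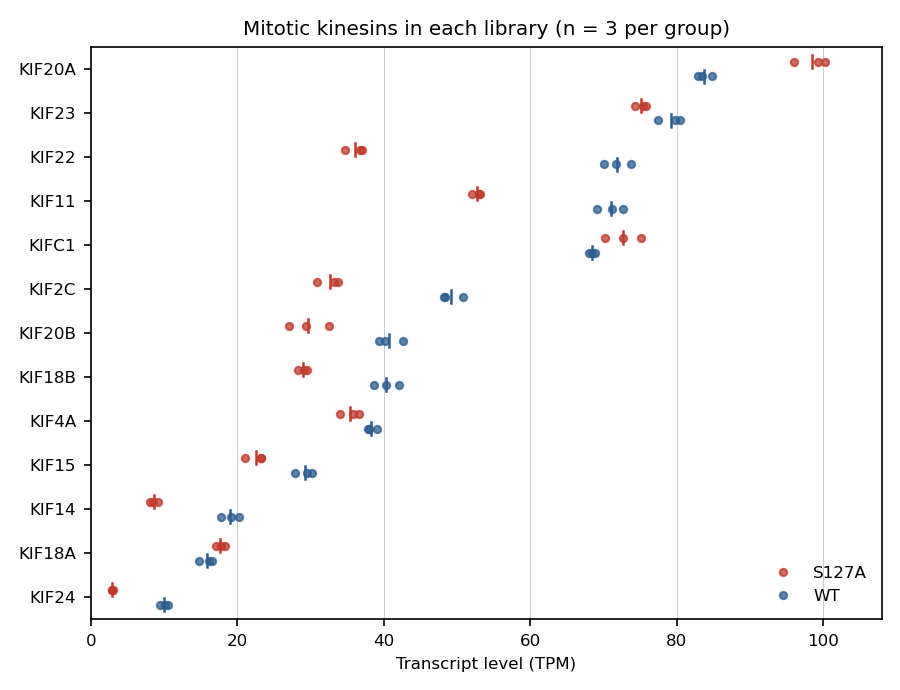
TPM of the 13 mitotic kinesins in the 3 S127A (upper, red) and 3 WT (lower, blue) libraries, ordered by WT mean; points are libraries and the short bar is their mean. KIF20A, KIFC1 and KIF18A lie slightly to the right in S127A, KIF23 and KIF4A nearly coincide, and KIF22, KIF14 and KIF24 are at 50.3% of the WT mean or less.

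Genes of general proliferation were set beside these motors. Of 21 such markers 21 were tested, 17 fell (81.0%) and 3 rose (14.3%), against 49.8% lower and 40.2% higher of all tested genes. The median log2 difference of these markers was −0.65, against −0.42 for the mitotic kinesins. The markers summed to 2470 to 2535 TPM in S127A, against 3301 to 3344 TPM in WT. MKI67, the proliferation antigen, fell by 1.10 and PLK1, a mitotic kinase, by 1.44 on the log2 scale, the deepest fall of the 21. MCM7 rose by 1.01 (342 ± 3.36 TPM in S127A and 170 ± 4.55 TPM in WT). MYBL2 rose by 0.47 and FOXM1, a factor that drives mitotic genes, by 0.21. PCNA was not called (log2 difference 0.01, adjusted p = 0.840). The part of cell cycle distribution in the kinesin levels was not tested.

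Mitotic genes are known to carry the cell cycle homology region, TTTGAA, near their start, often downstream of CCAAT boxes. Promoter windows from RefSeq were found for 11 of the 13 mitotic kinesins and could be searched on both strands. TTTGAA or its reverse complement TTCAAA was present in 9 of 11 and CCAAT or ATTGG in 7 of 11, against 20.2% and 41.1% of 27025 genes. Among the other motor and tubulin classes TTTGAA occurred in 1 of 5 beta-tubulins, 1 of 5 kinesin-3 genes and 2 of 9 of the other kinesins, and in none of the windows of the remaining classes, the 5 alpha-tubulin windows included. The windows of 4 mitotic kinesins in which both motifs lie close to the start are shown, with the matches to either motif on both strands in capitals. Their places are chr9:61946750-61947049, minus strand for Kif23, chr19:37376132-37376431, plus strand for Kif11, chr17:33890584-33890883, minus strand for Kifc1, and chr11:102925075-102925374, minus strand for Kif18b.
Kif23: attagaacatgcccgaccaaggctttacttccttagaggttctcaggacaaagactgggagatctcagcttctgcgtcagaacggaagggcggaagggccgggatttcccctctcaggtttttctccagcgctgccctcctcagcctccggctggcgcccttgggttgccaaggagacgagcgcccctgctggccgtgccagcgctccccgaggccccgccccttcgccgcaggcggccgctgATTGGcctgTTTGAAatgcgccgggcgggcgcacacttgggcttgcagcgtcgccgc
Kif11: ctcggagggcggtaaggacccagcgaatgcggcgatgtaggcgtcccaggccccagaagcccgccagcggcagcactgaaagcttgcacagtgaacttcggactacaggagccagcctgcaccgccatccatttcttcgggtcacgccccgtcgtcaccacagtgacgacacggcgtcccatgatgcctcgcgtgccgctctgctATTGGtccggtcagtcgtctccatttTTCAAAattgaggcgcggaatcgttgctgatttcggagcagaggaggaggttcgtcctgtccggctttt
Kifc1: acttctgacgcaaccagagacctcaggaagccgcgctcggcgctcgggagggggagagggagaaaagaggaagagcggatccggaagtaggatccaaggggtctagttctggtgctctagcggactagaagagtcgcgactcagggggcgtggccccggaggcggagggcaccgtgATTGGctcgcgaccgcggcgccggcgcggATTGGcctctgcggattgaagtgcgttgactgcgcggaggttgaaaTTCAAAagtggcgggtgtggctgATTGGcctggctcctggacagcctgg
Kif18b: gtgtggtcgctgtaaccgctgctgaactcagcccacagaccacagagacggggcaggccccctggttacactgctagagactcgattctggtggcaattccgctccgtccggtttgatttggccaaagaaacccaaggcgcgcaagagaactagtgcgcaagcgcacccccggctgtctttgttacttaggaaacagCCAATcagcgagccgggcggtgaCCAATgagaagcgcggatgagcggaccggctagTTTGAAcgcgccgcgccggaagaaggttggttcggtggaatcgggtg
The TTTGAA or TTCAAA begins at base 253 of the window in Kif23, 232 in Kif11, 252 in Kifc1 and 254 in Kif18b, counted from the 5′ end, with the start of the gene after base 250. Not all of the 9 lie so close: the only match begins at base 23 in Kif14 and at base 148 in Kif2c. These matches are letters in a window and no measure of binding.

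Among the other kinesins 6 of 7 tested genes fell and KIF2A rose. KIF21B, a motor that restrains microtubule growth and is known from neurons and immune cells, stood at 0.1, 0.09 and 0.06 TPM in S127A, against 70.9, 72.5 and 70.4 TPM in WT (log2 difference −6.06, SE 0.0568, adjusted p = 1.59e-14). This was the largest difference of the set, with 0.117% of the WT mean left. Its relative KIF21A fell by only 0.38 (16.6 ± 0.482 TPM in S127A and 22.0 ± 1.16 TPM in WT, adjusted p = 4.28e-05). KIFC3, a minus-end motor of junctions and Golgi, held 7.7, 7.9 and 8.89 TPM in S127A, against 35.6, 33.6 and 35.0 TPM in WT (log2 difference −1.97, adjusted p = 9.08e-11). KIF26A, an atypical kinesin, was listed at 0 in the S127A libraries, against 2.13, 1.98 and 2.17 TPM in WT (adjusted p = 3.28e-09). KIF2A, a depolymerase active outside mitosis as well, was the 1 that rose, with 55.6, 54.7 and 54.8 TPM in S127A, against 33.8, 32.0 and 32.4 TPM in WT (log2 difference 0.73, SE 0.0385, adjusted p = 8.94e-09). KIF7, of Hedgehog signalling at the cilium tip, held 6.91, 8.24 and 7.92 TPM in S127A, against 11.5, 11.6 and 11.2 TPM in WT (log2 difference −0.52, adjusted p = 2.67e-05). KIF9, of motile cilia, averaged 0.497 ± 0.163 TPM in S127A and 1.56 ± 0.472 TPM in WT (log2 difference −0.76, adjusted p = 2.43e-04). Of the 6 not tested, KIF6 stood at 0.03, 0 and 0 TPM in S127A, against 1.56, 1.19 and 1.81 TPM in WT, and KIFC2 at 0.9, 1.42 and 1.55 TPM in S127A, against 0.51 to 0.57 TPM in WT. KIF12, KIF19, KIF26B and KIF27 stayed at or below 0.58 TPM.

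Cytoplasmic dynein-1 fell in its heavy chain and changed the balance of its light intermediate chains. DYNC1H1, the motor subunit, stood at 116, 115 and 119 TPM in S127A, against 170, 181 and 175 TPM in WT (log2 difference −0.58, SE 0.0325, adjusted p = 1.53e-08). DYNC1LI1, a light intermediate chain that binds cargo adaptors, held 97.7, 89.9 and 91.2 TPM in S127A, against 155, 164 and 157 TPM in WT (log2 difference −0.76, adjusted p = 8.21e-09). DYNC1LI2, the alternative chain, rose, with 91.7, 88.9 and 88.8 TPM in S127A, against 68.0, 65.3 and 65.1 TPM in WT (log2 difference 0.44, adjusted p = 3.21e-07). Their ratio, DYNC1LI1 over DYNC1LI2, was 1.01 to 1.07 in S127A and 2.27 to 2.51 in WT, with no overlap. DYNC1I1, a neuronal intermediate chain, was under the tested level, with 0, 0.05 and 0 TPM in S127A and 0.29, 0.38 and 0.2 TPM in WT. DYNC1I2, the other intermediate chain gene, was not listed, so the intermediate chain level of these cells is not known here.

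Of dynein-2, the motor that returns cargo from cilium tips, the symbol rule took in 2 genes, and neither was called lower. Its heavy chain DYNC2H1 held 4.3, 3.48 and 4.11 TPM in S127A and 4.43, 4.12 and 4.56 TPM in WT, with overlapping libraries (log2 difference −0.12, SE 0.0805, adjusted p = 0.191; 0.18 with quantile normalization). Its light intermediate chain DYNC2LI1 rose, with 34.7, 32.5 and 35.0 TPM in S127A, against 29.2, 29.6 and 24.7 TPM in WT (log2 difference 0.29, adjusted p = 0.00195).

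The dynein light chains fell with 1 exception among the 5 tested. DYNLRB1, the roadblock chain and the most abundant, held 177, 185 and 186 TPM in S127A, against 286, 292 and 293 TPM in WT (log2 difference −0.67, adjusted p = 2.65e-09). DYNLL2 and DYNLL1 encode near-identical LC8 chains, hubs that also bind many partners outside dynein. DYNLL2 held 81.8, 74.3 and 78.2 TPM in S127A, against 180, 191 and 180 TPM in WT (log2 difference −1.22, SE 0.0413, adjusted p = 2.06e-10). DYNLL1 held 166, 168 and 163 TPM in S127A, against 148, 152 and 160 TPM in WT (log2 difference 0.11, adjusted p = 0.0105). DYNLL2 was thus above DYNLL1 in each WT library and below it in each S127A library. Of the Tctex chains, DYNLT3 held 71.7, 61.8 and 67.2 TPM in S127A, against 95.9, 85.3 and 86.9 TPM in WT (log2 difference −0.41, adjusted p = 5.08e-05). DYNLT1 fell by 0.72 on the log2 scale (adjusted p = 5.28e-04) with a wide spread: 45.6, 38.9 and 34.9 TPM in S127A, against 75.8, 74.1 and 50.7 TPM in WT. DYNLRB2 was listed at 0 in all 6 libraries.

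Partners of tubulin and the motors were read off the same fit, against the backgrounds of 40.2% higher and 49.8% lower. Counts with TMM factors stand against 44.9% higher and 44.8% lower. Of 12 dynactin subunits, which link dynein to cargo, 8 fell and 3 rose (5 and 3 with TMM factors). The deepest fall was in ACTR1B, an actin-related protein of its filament (93.7 ± 3.45 TPM in S127A and 209 ± 1.27 TPM in WT). Its capping subunits split, with CAPZB at 163 ± 1.37 TPM in S127A and 251 ± 9.53 TPM in WT, and CAPZA1 at 243 ± 6.69 TPM in S127A and 165 ± 4.83 TPM in WT. Of 14 tested dynein regulators and adaptors 7 fell and 7 rose, with NDE1, a dynein activator, at 43.0 ± 1.01 TPM in S127A and 90.6 ± 2.24 TPM in WT. NIN, an adaptor at centrosomes, held 5.44 ± 0.496 TPM in S127A and 26.8 ± 0.929 TPM in WT, and the adaptor HOOK1 0.293 ± 0.107 TPM in S127A and 6.24 ± 0.624 TPM in WT. Of 10 tested kinesin adaptors 7 fell and 2 rose. MAPK8IP1, the JIP1 scaffold that ties cargo to kinesin-1, stood at 0.163 ± 0.0513 TPM in S127A and 227 ± 2.89 TPM in WT (log2 difference −7.62, adjusted p = 4.15e-15). PLEKHM2, which recruits kinesin-1 to lysosomes, held 18.6 ± 0.879 TPM in S127A and 76.0 ± 0.274 TPM in WT, and TRAK2, the mitochondrial adaptor, 28.4 ± 0.488 TPM in S127A and 88.7 ± 0.9 TPM in WT. Cargo linkers thus reached larger falls than KIF5B and KLC1 themselves.

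The nucleation list was balanced as deposited, with 7 of 16 tested genes higher and 7 lower. With TMM factors 8 were higher and 3 lower, against 44.9% and 44.8% of all tested genes. CDK5RAP2, which tethers gamma-tubulin rings at centrosomes, held 10.4 ± 0.185 TPM in S127A and 44.4 ± 1.22 TPM in WT. Within the augmin complex, HAUS5 fell (9.5 ± 0.67 TPM in S127A and 29.1 ± 1.29 TPM in WT) and HAUS2 rose (36.7 ± 1.68 TPM in S127A and 21.1 ± 0.626 TPM in WT). Of 7 tubulin folding cofactors 5 fell and 1 rose: TBCC (21.3 ± 0.737 TPM in S127A and 61.4 ± 1.83 TPM in WT) and TBCD (18.8 ± 0.814 TPM in S127A and 56.2 ± 1.2 TPM in WT) fell, while TBCE held 50.7 ± 1.5 TPM in S127A and 22.9 ± 0.47 TPM in WT. These 3 act together in assembling the tubulin dimer. Of 18 tested tubulin modifying enzymes 12 fell and 5 rose. TTL, the ligase that adds tyrosine back to alpha-tubulin, rose to 28.1 ± 1.17 TPM in S127A, against 8.21 ± 0.404 TPM in WT. The polyglutamylases TTLL5 (6.79 ± 0.291 TPM in S127A and 22.0 ± 0.506 TPM in WT) and TTLL7 (1.69 ± 0.205 TPM in S127A and 10.2 ± 0.453 TPM in WT) fell.

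Proteins that bind the microtubule lattice or its ends went both ways. Of 21 tested microtubule-associated proteins 11 fell and 9 rose. The doublecortin-like kinases DCLK1 (0.0467 ± 0.0404 TPM in S127A and 38.3 ± 2.56 TPM in WT) and DCLK2 (0.0633 ± 0.0551 TPM in S127A and 32.2 ± 0.815 TPM in WT) were nearly lost, and EML1 rose to 26.5 ± 0.745 TPM in S127A, against 0.6 ± 0.0781 TPM in WT. Of 10 tested plus-end and polymerase proteins 7 fell and 3 rose. The end-binding protein MAPRE1 held 56.1 ± 0.795 TPM in S127A and 96.1 ± 2.85 TPM in WT, and the rescue factors CLASP1 and CLASP2 fell by 0.97 and 1.25 on the log2 scale. Of 9 tested severing and destabilising proteins 7 fell and 1 rose, with TMM factors 6 and 2. FIGNL1, an AAA ATPase, held 22.9 ± 1.26 TPM in S127A and 47.4 ± 1.31 TPM in WT. The katanin-like genes split, with KATNAL2 at 1.78 ± 0.287 TPM in S127A and 8.25 ± 1.25 TPM in WT, and KATNAL1 at 14.7 ± 0.249 TPM in S127A and 9.59 ± 0.202 TPM in WT. All 7 tested genes of the melanosome transport list fell, though not all of them are linkers to motors. The largest falls were in RAB38 (0.59 ± 0.0866 TPM in S127A and 494 ± 11.4 TPM in WT) and RAB27A, a melanosome GTPase (0.403 ± 0.1 TPM in S127A and 113 ± 3.78 TPM in WT). Next came MLPH, the effector of RAB27A (0.807 ± 0.0833 TPM in S127A and 111 ± 3.51 TPM in WT).

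**Figure D5:**
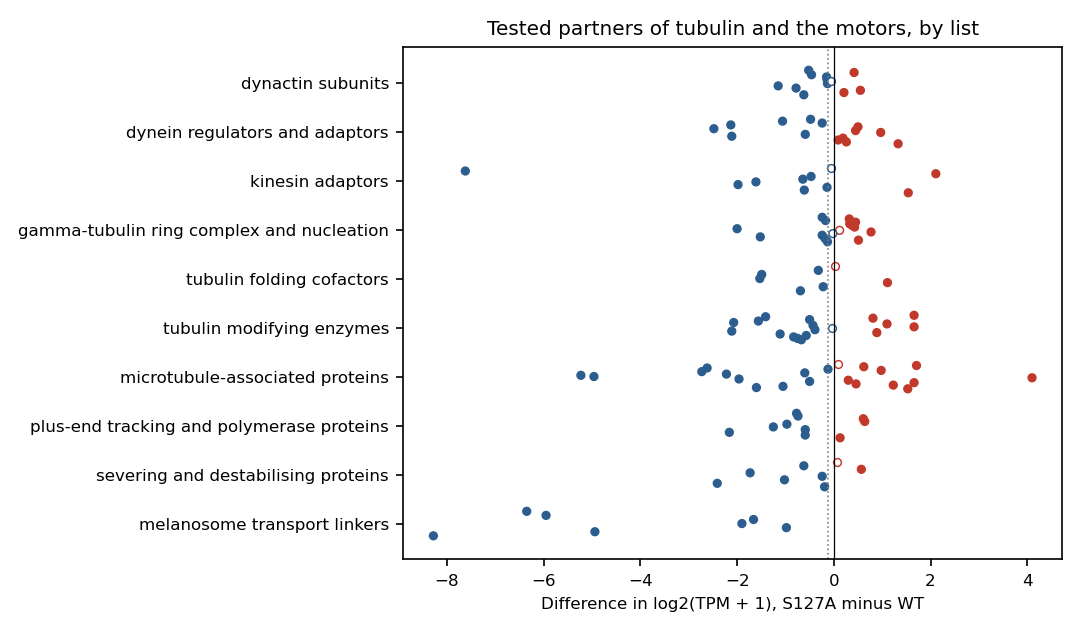
Difference in log2(TPM + 1), S127A minus WT, of the tested genes of 10 partner lists; each point is a gene, filled where it passed the test (red higher, blue lower), open where it did not, and the dotted line marks the median of all tested genes (−0.12). FIGN, listed at 0 in S127A, is left out. All tested genes of the list labelled melanosome transport linkers lie to the left. The nucleation list lies on both sides of 0 as deposited (7 higher and 7 lower, or 8 and 3 with TMM factors).

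Markers of other cells were read beside the isotypes that are known from them. Of 12 neuron markers 10 were listed, and their sum was 44.6 to 48.0 TPM in S127A, against 33.0 to 35.4 TPM in WT. UCHL1 made up nearly all of it in WT and was listed at 0 in S127A, where NEFL (26.7 to 29.7 TPM) and SYT1 (14.5 to 15.6 TPM) made up most; INA was at 0 in all libraries and SNAP25 and GAP43 at 0 in WT. Of 10 multiciliated cell markers 10 were listed, with sums of 3.84 to 4.04 TPM in S127A and 96.4 to 98.1 TPM in WT, most of the WT sum from DNAI1 (63.0 to 65.6 TPM in WT), while TEKT1 was at 0 throughout and FOXJ1 at or below 0.5 TPM. Of 10 fibroblast markers 10 were listed, with sums of 301 to 313 TPM in S127A and 16.1 to 17.2 TPM in WT, mostly COL1A2 in S127A. POSTN, the 1 of 6 tested that fell, held 0.0667 ± 0.0231 TPM in S127A and 7.79 ± 0.912 TPM in WT. LUM and THY1 were at 0 in S127A and at or below 0.07 TPM in WT. Of 12 immune cell markers 8 were listed, with sums of 48.6 to 51.7 TPM in S127A and 7.41 to 8.53 TPM in WT, mostly CD14 in S127A, and PTPRC, the pan-leukocyte marker, was at or below 0.1 TPM. The 6 endothelial markers summed to 0.35 to 0.42 TPM in S127A and 1.05 to 1.76 TPM in WT. The part of these cell identities in the tubulin and motor levels was not tested.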

How the data were processed

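RNA-seq of B16F10 cells in 6 libraries was used (3 S127A and 3 WT, grouped and numbered by sample title). The authors deposited TPM per gene, per the file headers; the submitters' processing notes name mm10. The sources used here do not name the aligner, quantifier, annotation, strand setting or origin of the capitalised symbols. No counts were used here, so depth is unknown, no counting interval can be given, and a count model was not run. The columns summed to 830745 to 833332 TPM in S127A and 862949 to 864529 TPM in WT.

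Genes with a mean of at least 1 TPM (10348 of 14915) were tested on log2(TPM + 1), pseudocount 1, with limma 3.58.1 in R 4.3.3 (lmFit, eBayes with trend, two-sided, genotype as the only term, Benjamini-Hochberg threshold 0.05). Such fold changes understate the change of low genes. The fit was tested on simulated data. Summaries used Python 3.11.15 and pandas 2.3.3. Of the 73 symbols 68 matched a GENCODE mouse symbol in upper case (mm10 coordinates) and 54 a RefSeq promoter window (GRCm38.p6); sequence of genes on some chromosomes is not shown.

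The members follow a rule on symbols alone, but that rule, the 11 classes, the 10 partner lists and the 7 marker lists were chosen with earlier results of these data known. Values per library are given for up to 4 members per class with the largest called difference (a group mean of at least 5 TPM, no overlap), for the most abundant member of each class and for a panel of 18 symbols; each partner list names up to 3 called genes with the smallest p among those with a group mean of at least 5 TPM. Others were named after their values were seen. Alternatives were other pseudocounts, filters, scalings, variance models, a replicate block, sample weights, and fits without each library in turn.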

Additional observations from a re-analysis of the deposited data

How the results depend on the processing

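Across 17 alternatives the number of genes called ran from 8159 (mean of at least 5 TPM, 9053 tested) to 10593 (no filter, 14385 tested), against 9315. Members called higher numbered 12 to 18 and members called lower 38 to 46, against 14 and 41. Leaving out 1 library gave 9143 to 9215 genes, 12 to 13 members higher and 39 to 40 lower. All 32 other genes followed kept direction and call in every alternative run. Most of these were picked for the smallest p of their list in the main fit, so their count says little. Of the 57 tested members 50 kept both. The 7 exceptions were KIF23, KIF4A, KIFC1, KIF18A, KIF3B, TUBB4A and DYNC2H1, all with differences of at most 0.19 in size. Signs turned for KIF23 (0.04) and KIF4A (0.01) with TMM factors, for DYNC2H1 with quantile normalization (0.18) and for TUBB4A without WT replicate 3 (−0.01, with 0.23 the highest value of any fit without 1 library); TUBB4A passed with quantile normalization (0.39, adjusted p = 0.0109). For KIF23 the adjusted p ran to 0.902 over the alternatives. Rescaling changed the median of all genes, which is the construction of TMM and quantile normalization; other causes were not tested. Same-numbered libraries of the groups correlated in their deviations at 0.117, 0.017 and 0.028, and the other pairs at −0.076 to 0.054. The highest value was that of the replicates numbered 1, while S127A replicate 2 correlated best with WT replicate 3, at 0.054. These low values do not settle whether the numbers pair the libraries. With a replicate block 9339 genes were called, 14 members higher and 40 lower, and the adjusted p of DYNLT1 was 2.34e-06, against 5.28e-04 without it. Depth is unknown, so members under 1 TPM are described and not tested.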
